A study of Mus musculus with 12 samples.

Results

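Control 562 cells are vascular tumor cells that lack Tsc1, and their resting transcriptome is described here from 3 RNA-sequencing libraries, which were chosen by their labels out of 12 libraries in the series. All 14851 genes of the deposited tables were examined in them. 562 cells are a line that immortalized spontaneously in culture. It was derived from cutaneous tumors of a mouse of the genotype Tsc1 f/f;Scl-Cre that had been given tamoxifen, in which the Scl-driven Cre deletes Tsc1 in endothelial cells. The other 9 libraries are 3 each of Atg7 KO, Atg5 KO and Fip200 KO cells of that line, made with lentiviral CRISPR-Cas9 guides against 1 autophagy gene and puromycin selection. All 12 are labelled as vascular tumor cells of C57BL/6 strain and as lymphatic endothelial tissue, the controls with the genotype wildtype, although the line as a whole is Tsc1-deficient. The sources used here do not say whether the sequenced controls carried the EGFP guide that served as control in the plasmid work, nor what makes the 3 control samples separate. The study states biological triplicates in general and independent RNA replicates for the KO cells. No source used here names cultures for the control samples, so the p-values below measure the spread between these samples, which may be technical. The line comes from 1 mouse, so no value here carries the variation between animals.

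Endothelial cells line blood and lymphatic vessels and are recognised by adhesion molecules of their junctions, such as CD31 and VE-cadherin, and by the receptors for VEGF and angiopoietin. Lymphatic endothelial cells are set apart by the transcription factor Prox1 and by Lyve1, podoplanin and the VEGF-C receptor VEGFR3. Tsc1 forms with Tsc2 the complex that restrains the growth kinase mTORC1, and loss of Tsc1 in these vessels gives vascular tumors in mice.

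Levels are given as RPKM, the reads of a gene per kilobase of its length, scaled to the reads of the library, so levels of different genes can be set side by side. The 3 control libraries held 18963602, 23635368 and 19759776 reads, and the 12 libraries held between 17269403 and 23635368. A gene was called expressed at an RPKM of at least 1 in all 3 control libraries, which 10430 of the 14851 genes (70.2%) reached, and near 0 below 0.5 in all 3, as were 2555 genes (17.2%). The median expressed gene had a mean RPKM of 13.2, and the 90% quantile was 71.1. Reads of Rn45s, the precursor of ribosomal RNA, made up 1.38% to 1.76% of each control library. In the KO libraries the targeted gene was not absent at the RNA level. Rb1cc1, which encodes FIP200, stood at 5.18, 6.84 and 2.06 RPKM after its own targeting against 6.43, 8.27 and 7.73 in control, Atg5 at 8.53, 15.5 and 12.6 in Atg5 KO cells against 14.2, 11.1 and 10.6, while Atg7 at 5.40, 2.64 and 8.34 in Atg7 KO cells against 18.4, 25.0 and 19.8. A guide that disrupts the protein need not lower the RNA, so these values check the labels only for Atg7, the sole one of these genes whose KO libraries all lay below control.

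The highest level in control cells belonged to ferritin, the iron store of the cell. Ftl1, its light chain, had an RPKM of 4028, 6470.5 and 4490.3 in replicates 1, 2 and 3, and Fth1, its heavy chain, had 1985, 3688 and 2280.2. Both were highest in replicate 2. Fabp4, a fatty acid carrier of adipocytes and of capillary endothelium, followed Ftl1 with 3255, 2496 and 2768. Hmox1, the haem oxygenase that frees iron from haem, stood at 2011, 1871 and 1419 RPKM. Cryab, a small heat shock protein, stood at 2183, 1357 and 1639. B2m, the light chain of MHC class I, reached 1693, 2722 and 1868 RPKM, and was thus 1.61 times higher in replicate 2 than in replicate 1. Cathepsin L, encoded by Ctsl and both lysosomal and secreted, was the only one of the 20 highest genes that differed by more than 2 times, with 586, 2046 and 981. Lamp1, a lysosome membrane protein, completed the 20 with 935, 1004 and 1076.

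The rest of the 20 were genes that most dividing cells express at a high level. They were Eef1a1, Tpt1, Pkm, Actb, Ppia, Tmsb4x, Pgk1, Rpl41, S100a6 and Vim, together with Rn45s and Mir6236, a short RNA gene of 123 bases. Vim, which encodes the intermediate filament vimentin, stood at 1694, 1933 and 1489 RPKM. Ftl1, Fth1, Eef1a1, Tpt1, Ppia and Rpl41 have processed copies elsewhere in the mouse genome, and how reads that fit several copies were counted is not stated, so their levels are less certain than those of Fabp4 or Hmox1.

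**Figure D1:**
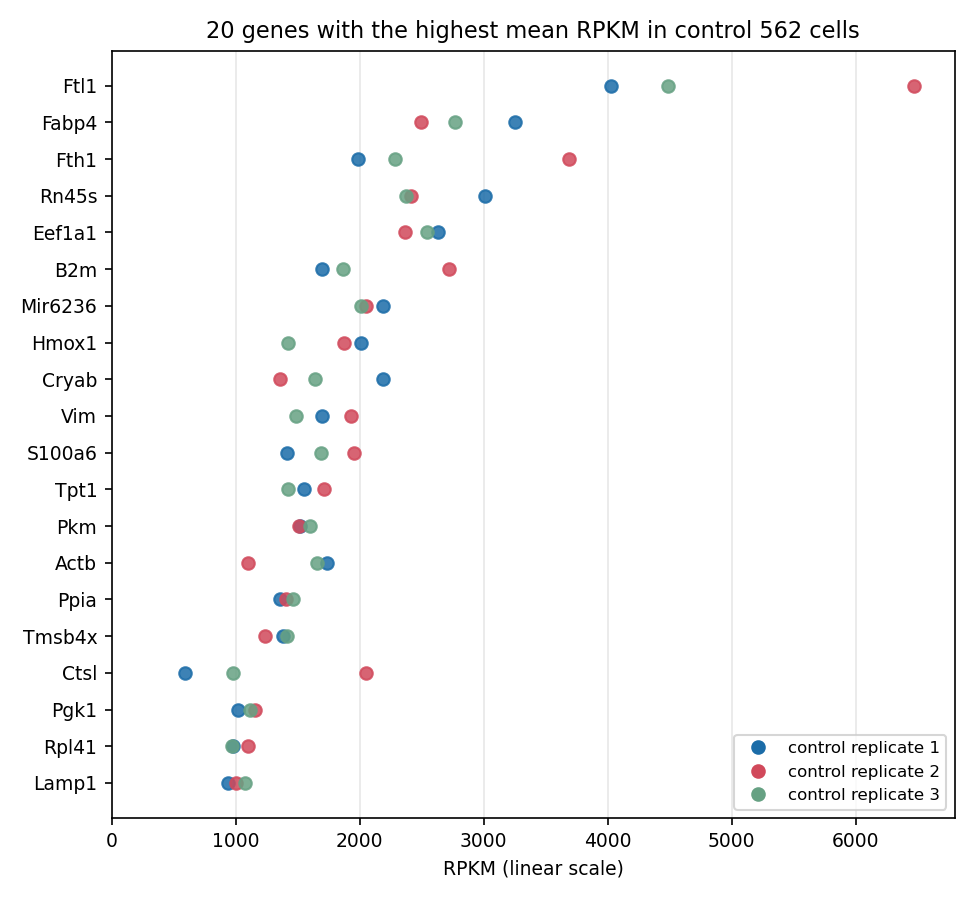
RPKM on a linear axis for the 20 genes with the highest mean in control, 1 row per gene, with a point for each of the 3 control libraries. Ftl1 lies highest in replicate 2 at 6470.5, and Ctsl, with 586, 2046 and 981, differs most as a ratio.

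Endothelial identity was clear in all 3 libraries. Of 25 pan-endothelial genes, 22 were expressed and 1 was near 0. Emcn, which encodes the surface sialomucin endomucin, was the highest at 1327, 476 and 704 RPKM. Plvap, the diaphragm protein of fenestrated endothelium, came next at 1054, 387 and 508. The junction proteins followed, with Pecam1 (CD31) at 428, 265 and 350 and Cdh5 (VE-cadherin) at 310, 116 and 271. Of the receptor genes, Kdr, which encodes the VEGF receptor VEGFR2, had 65.3, 15.2 and 34.7 and Tek, the angiopoietin receptor, 23.0, 9.60 and 20.2. The mean levels were 348 ± 81.8 for Pecam1, 232 ± 102 for Cdh5 and 38.4 ± 25.3 for Kdr (SD, n = 3). All of these genes were lowest in replicate 2.

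That order held for most of the group. Replicate 2 was the lowest of the control libraries for 20 of the 24 pan-endothelial genes that reached an RPKM of 0.5 in a control library, while over all 12296 such genes it was lowest for 35.6%. The median of replicate 2 minus replicate 1 over these 24 genes was -1.23 on the log2 scale of RPKM plus 0.5, beside 0.03 over all genes. Sox18, a transcription factor of early vessels, showed this strongly with 114, 15.6 and 46.3 RPKM. Erg and Fli1, the ETS factors that maintain endothelial identity, had 92.0, 46.7 and 84.1, and 50.5, 13.4 and 44.2. The summed RPKM of the list was 5333 in replicate 1, 2172 in replicate 2 and 3398 in replicate 3, and it lay between 3409 and 5062 in the 9 KO libraries, so replicates 2 and 3 were below all of them and replicate 1 above all of them. These are bulk libraries, in which fewer cells of a type and less RNA per cell cannot be told apart.

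The exceptions were Cldn5, Nos3, Vwf and Mmrn2, all lowest in replicate 3. Nos3, the nitric oxide synthase of endothelium, had 304, 173 and 171 RPKM, and Mmrn2, a glycoprotein of the vessel surface, 82.8, 37.9 and 27.5. Vwf, the clotting factor stored by most large-vessel endothelium, was low at 0.227, 0.809 and 0.206. Tal1, a transcription factor shared with blood precursors, followed the order only slightly, with 12.8, 12.4 and 14.3, and Sox17, a factor of arterial endothelium, was near 0 with 0.128, 0 and 0.0112. Cldn5, a tight junction claudin of endothelium, was present in replicate 1 at 12.1 and scarce in the others at 0.299 and 0.143, that is 324, 10 and 4 reads. Replicate 1 exceeded replicate 3 in Cldn5 by 84.4 times, with an exact 95% counting interval of 32.6 to 312. All such intervals cover counting error only.

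The lymphatic genes gave a mixed picture, so the label lymphatic endothelial cells was borne out by some of its markers and not by others. Of 12 genes on the list 11 were in the tables and 6 were expressed. Pdpn (podoplanin) had 65.6, 227 and 139 RPKM, Lyve1, a hyaluronan receptor, 180, 98.9 and 60.6, and Flt4 (VEGFR3) 65.2, 31.7 and 61.0. Prox1, the factor that defines the lineage, was low at 1.35, 0.153 and 0.795. Itga9, an integrin of lymphatic valves, was near 0 with at most 0.320, and Tbx1 had 0.717, 0.0466 and 0. Foxc2, a factor of lymphatic valves, was the most even member at 15.3, 15.0 and 15.9, and Nr2f2, which venous and lymphatic endothelium share, had 44.2, 35.3 and 48.8. Mmrn1 differed most between libraries with 4.96, 0.743 and 8.15 RPKM. Pdpn was lowest and Lyve1 highest in replicate 1, and both were higher in replicate 2 than in replicate 3.

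Of 12 arterial and Notch genes 8 were expressed. The arterial genes Hey2, Gja4 and Gja5 were near 0, at no more than 0.0502 RPKM in any control library. The Notch receptors and a ligand that vessels generally use were expressed, with Notch4 at 36.7, 12.6 and 22.2, Notch1 at 31.6, 12.6 and 25.4 and Dll4 at 20.8, 8.18 and 35.6. Ephb4, a receptor typical of veins, stood at 86.0, 32.4 and 63.3, while Aplnr, another gene of veins, was near 0 with at most 0.252.

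Near-zero levels were found for 6 of 10 mural and smooth muscle genes, 5 of 7 epithelial genes, 6 of 8 haematopoietic genes and 5 of 6 neural genes found in the tables. The epithelial exceptions were the keratins Krt18 at 10.5, 6.17 and 6.58 RPKM and Krt19 at 6.78, 7.77 and 5.76. Pparg, a nuclear receptor of adipocytes that endothelium can express too and the only muscle or adipocyte gene in the tables, had 8.89, 9.10 and 8.56. Rgs5 of pericytes and Gfap of glia had no read in any control library, and Ptprc (CD45), carried by all leukocytes, had at most 0.0971 RPKM. The haematopoietic exceptions were Cd68, a lysosomal protein, at 91.7, 49.8 and 34.4, and lysozyme Lyz2 at 19.3, 2.88 and 26.4. The macrophage receptors Csf1r and Adgre1 were at most 0.0817. The haematopoietic list summed to 111, 53.1 and 61.2 RPKM in control and to between 14.1 and 265 in the KO libraries, and the mural list to 3.23, 6.41 and 5.17 and to between 3.10 and 64.5. The mural exceptions were Pdgfrb, the PDGF receptor of pericytes, at 0.0187, 4.19 and 0.261, Notch3 at 0.0133, 0.634 and 0.147, and the contractile genes Acta2 at 0.820, 0.444 and 2.91 and Tagln at 2.23, 0.454 and 1.60. Pdgfrb and Notch3 were highest in replicate 2, the contractile genes lowest.

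Genes of mesenchymal cells separated the control libraries in the direction opposite to the endothelial genes. Of 18 such genes in the tables, 14 reached an RPKM of 0.5, 7 of them differed by at least 4 times between libraries, and 13 were highest in replicate 2, where replicate 2 was highest for 40.7% of all genes. Dcn, a proteoglycan of fibrous tissue, had 0.125, 56.9 and 15.3 RPKM, from 5, 2831 and 634 reads. Col3a1, a fibrillar collagen chain, had 2.82, 143 and 23.1. Pdgfra, the PDGF receptor of fibroblasts, had 0.113, 9.02 and 2.26. The homeobox gene Prrx1 had 0.200, 29.0 and 11.5. In each of these genes replicate 1 was lowest and replicate 3 lay between the others.

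The pattern was not that of every mesenchymal gene. Col1a1 and Col1a2, the chains of the main collagen of fibroblasts, were near 0 in all 3 libraries with at most 0.0785 RPKM, and Postn and Twist1 had no read. Vim and Fn1 were high everywhere, Fn1 at 477, 808 and 739. Thy1, a surface protein of many fibroblasts, was lowest in replicate 3, with 17.8, 11.2 and 2.36. Without Vim and Fn1, which were left out after the values were seen, the list summed to 90.8 RPKM in replicate 1, 406 in replicate 2 and 149 in replicate 3, and to between 62.3 and 424 in the KO libraries. The part that other cells may have in the endothelial and mesenchymal differences between the control libraries was not tested.

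**Figure D2:**
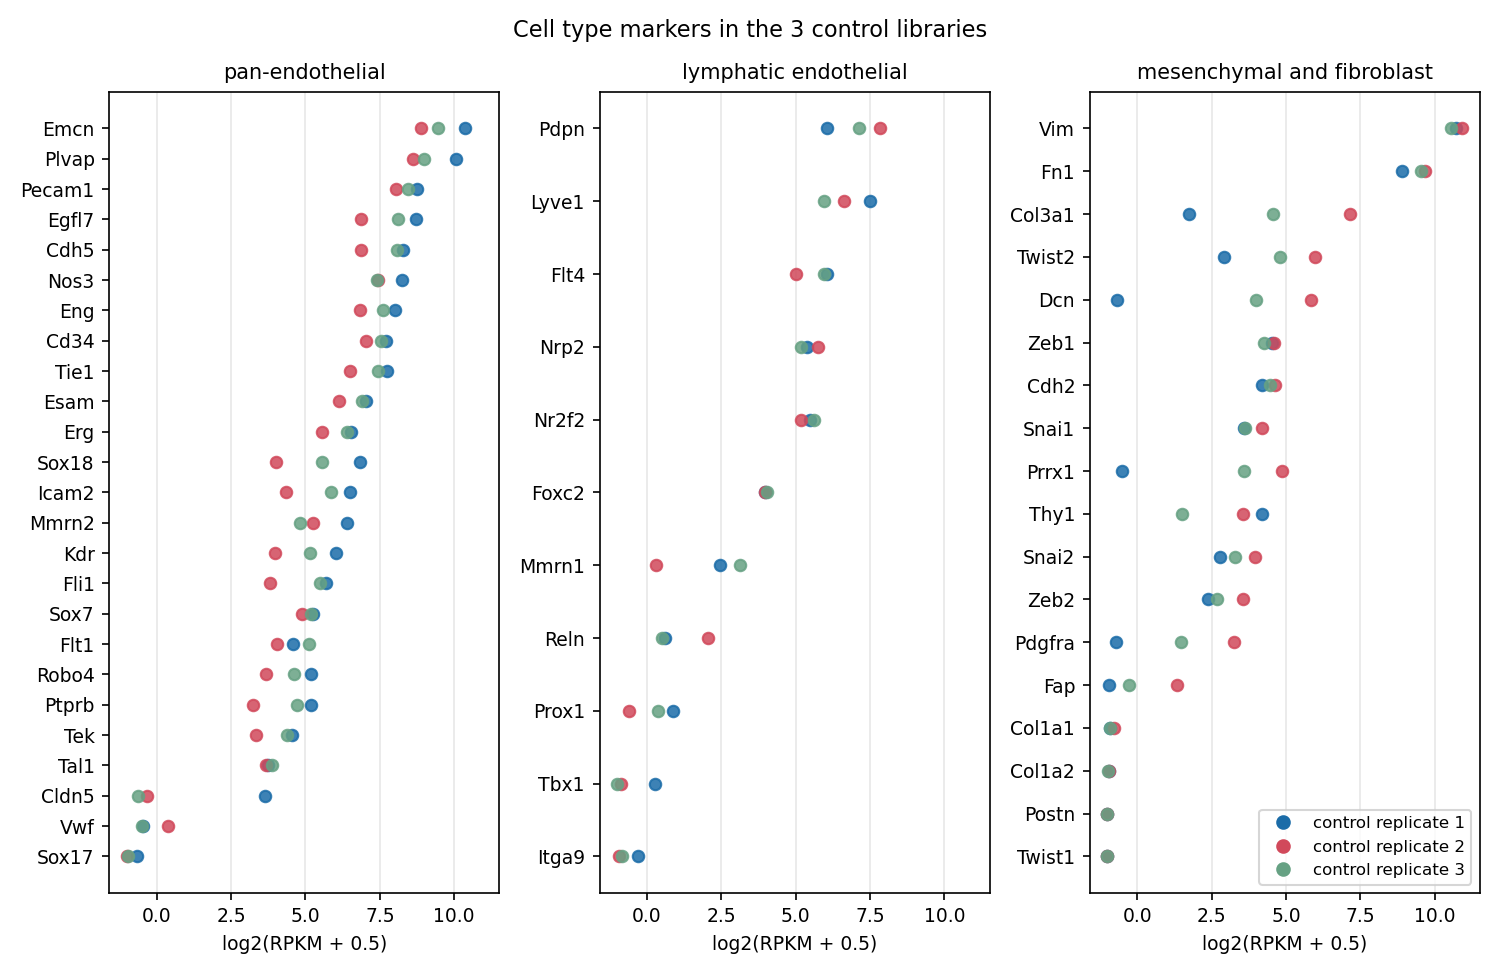
log2 of RPKM plus 0.5 for the pan-endothelial, lymphatic endothelial and mesenchymal genes found in the tables, 1 row per gene, with a point for each control library. Replicate 2 lies lowest in 20 of 24 endothelial genes reaching an RPKM of 0.5 and highest in 13 of 14 such mesenchymal genes, while Col1a1, Col1a2, Postn and Twist1 lie at the left edge in all 3.

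How far the 3 control libraries stood apart was measured for each gene as the highest minus the lowest log2 of RPKM plus 0.5, over the 12296 genes that reached an RPKM of 0.5 in at least 1 of them. The median range was 0.43. A range of at least 2, which is 4 times, was found in 334 genes (2.72%), with Atf3 just inside at 2.004 and Wfdc2 just short of it. The same count was 169 of 11981 genes (1.41%) in Atg5 KO, 478 of 12080 (3.96%) in Atg7 KO and 936 of 12382 (7.56%) in Fip200 KO libraries, so control lay between the KO groups. Between replicates 1 and 2 there were 283 genes that differed by at least 4 times, between replicates 1 and 3 there were 128, and between replicates 2 and 3 there were 88.

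Replicate 3 lay in the middle for 250 of the 334 genes (74.9%), and replicate 2 was the highest for 197 (59.0%). By the library farther from the middle one, replicate 2 stood apart on the high side in 103 genes and replicate 1 on the low side in 100. Replicate 1, the highest library for 33.2% of all genes, stood apart on the high side in 62, replicate 2 on the low side in 44, and replicate 3 in 16 high and 9 low. The libraries carry name prefixes, FY for control replicate 1 and all Fip200 KO libraries, JG for control replicates 2 and 3 and Atg5 KO replicates 1 and 2, and Yang for the rest. The labels do not say what a prefix stands for, so it cannot be told apart from other differences between the libraries.

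For the 334 genes, control replicate 1 was inside the range of the 9 KO libraries for 252 (75.4%), replicate 3 for 141 (42.2%) and replicate 2 for 88 (26.3%). Over all 12296 genes these shares were 73.4%, 66.4% and 60.3%. Replicate 2 was above every KO library for 200 of the 334 and below every one for 46. The 334 genes were chosen for a wide control range, so these 2 counts partly reflect the choice. They were not made over all genes.

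**Figure D3:**
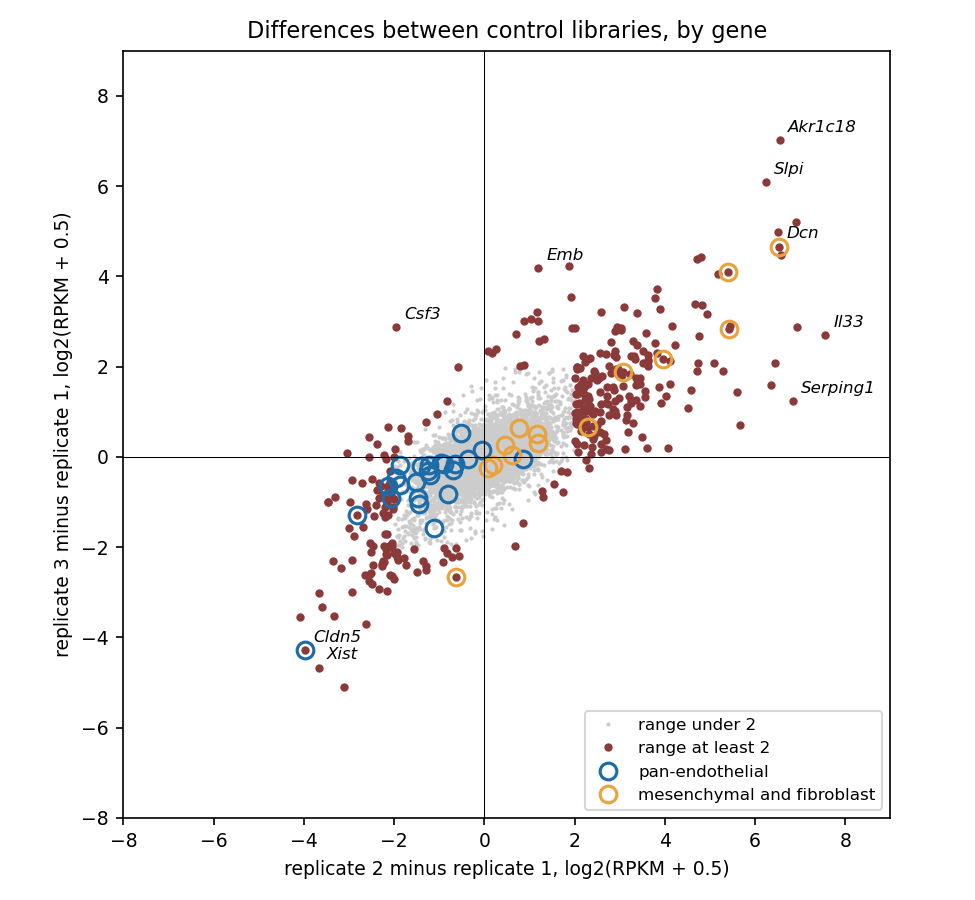
Difference of control replicate 2 (horizontal axis) and replicate 3 (vertical axis) from replicate 1 in log2 of RPKM plus 0.5, 1 point per gene for 12296 genes, with the 334 genes of a range of at least 2 in dark red. Mesenchymal genes, circled in orange, lie mostly to the upper right with Dcn, endothelial genes, circled in blue, to the left of 0, with Cldn5 at the lower left.

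The 20 widest ranges among the 8732 genes that reached an RPKM of 5 in a control library lay between 5.09 and 7.56 on the log2 scale, and in 18 of them replicate 2 was the highest. These ranges chose the genes, so their size is a description. Il33, an alarm cytokine of the interleukin-1 family kept in the nucleus, was the widest, with 0.101, 113 and 3.40 RPKM. Replicate 2 exceeded replicate 1 in Il33 by 1113 times, with an exact 95% interval of 477 to 3428, because replicate 1 held few reads. Akr1c18, a steroid dehydrogenase that inactivates progesterone, had no read in replicate 1 and 46.3 and 64.4 RPKM in replicates 2 and 3. Against a floor of 3 reads in replicate 1, replicate 3 was at least 622-fold higher in Akr1c18. The KO libraries reached at most 0.0339 in that gene.

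Several of the other widest genes encode secreted or cell surface proteins. Col6a1 and Col6a2, chains of the beaded collagen type VI, had 0.398, 108 and 6.15, and 0.0171, 44.4 and 1.67 RPKM. Pcolce, which speeds the cutting of procollagen, had 1.95, 294 and 89.6, and Fbn1, a microfibril protein, 1.40, 73.8 and 6.63. Thbs2, an anti-angiogenic thrombospondin, had 0.00890, 25.1 and 0.325. Serping1, the C1 complement inhibitor, and Serpinf1, which encodes the anti-angiogenic PEDF, were far higher in replicate 2 than in the others, with 0.551, 119.9 and 1.97 and with 0.0706, 45.9 and 1.22. Slpi, a leukocyte protease inhibitor, was close in replicates 2 and 3, with 3.61, 310.2 and 278. Gpc1, a cell surface heparan sulphate proteoglycan, had 2.32, 266 and 62.0.

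The remaining widest genes were Dcn, Col3a1 and Prrx1, described above, with Prl2c2, a placental prolactin relative of a family of near-identical copies, at 0.267, 68.8 and 23.6, Ereg, an EGF receptor ligand, at 0.0892, 27.9 and 1.101, Ism1 at 0.196, 24.8 and 11.0, Nos2, the inducible nitric oxide synthase, at 0.160, 21.98 and 2.30, the predicted gene Gm5886 at 27.0, 1187.5 and 204, and Mest. Gene copies leave the values of Prl2c2 and Gm5886 uncertain.

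Mest stood alone among the 20 in being highest in replicate 1, where its RPKM was 20.5 against 1.95 and 0.116. It is expressed from the paternal copy only. Sgce, imprinted in the same direction, had 3.62, 0.421 and 0.0265. Of 14 imprinted genes measured, 7 were near 0 throughout, H19, Igf2, Peg3 and Dlk1 among them, and Cdkn1c, a maternally expressed inhibitor of the cell cycle, was expressed at 92.3, 37.5 and 47.7. Xist, the RNA that coats the inactive X chromosome, followed the order of Mest with 12.7, 0.538 and 0.0178 RPKM, from 4807, 253 and 7 reads. Xist was between 36.2 and 65.4 in all KO libraries except Atg7 KO replicate 2, where it was 0.0468. Further genes highest in replicate 1 were Pthlh, which encodes a parathyroid hormone relative, at 14.5, 0.382 and 0.773, Igfbp3, a carrier of insulin-like growth factors, at 5.77, 0.121 and 0.0414, and Chodl at 6.52, 0.0836 and 0.200.

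The 5 genes that stood farthest below the others in replicate 2, among those reaching an RPKM of 5, were Gpr182, an endothelial receptor that takes up chemokines, at 14.0, 1.27 and 15.0 RPKM, Lyz2, the Notch ligand Dll1 at 15.2, 2.18 and 15.3, Khdrbs3 at 5.79, 0.0671 and 2.65, and Nov, a matricellular protein, at 432, 38.9 and 216. Csf3, the granulocyte colony-stimulating factor, was highest in replicate 3 with 10.1, 2.24 and 77.2, as were Emb at 0, 0.645 and 8.59, Lipn at 0.0351, 1.46 and 9.54, Wfdc17 at 1.12, 1.44 and 7.98 and Lilrb4a at 2.33, 4.73 and 22.3. Lower in replicate 3 than in either of the others were Thy1, Mest, Pik3ip1 at 3.06, 5.21 and 0.406, Cd209c at 11.4, 7.64 and 2.09, and Pkia at 6.47, 6.24 and 1.72.

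At the other end, the 10 expressed genes with the narrowest range differed by hardly more than 1% between the highest and lowest library. Skiv2l, an RNA helicase of the exosome pathway, had 16.1, 16.1 and 16.1 RPKM, Dnajc8, a co-chaperone found with splicing factors, 95.7, 96.0 and 95.4, and Ufd1, which helps to extract ubiquitinated proteins, 32.7, 32.6 and 32.5. Atxn10, Adipor2, Mad2l2, Cry1, Myg1, Arhgap21 and Ttbk2 were as even, at levels from 6.79 to 109.6 RPKM. In the KO libraries Adipor2 ranged from 30.2 to 84.1.

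The promoter bases upstream of the start site are shown for the first pair of widest and the first pair of narrowest genes that have a single RefSeq promoter, so that a reader can compare genes that differ in steadiness. Each run is the 250 bases before the start on the strand of the gene, 5′ to 3′, from RefSeq on GRCm38.p6, with CG dinucleotides in capitals. The strand and position are chr13:4150647-4150896, minus, for Akr1c18, chr10:76726045-76726294, minus, for Col6a1, chr4:132535309-132535558, plus, for Dnajc8, and chr16:18812044-18812293, plus, for Ufd1.
Akr1c18: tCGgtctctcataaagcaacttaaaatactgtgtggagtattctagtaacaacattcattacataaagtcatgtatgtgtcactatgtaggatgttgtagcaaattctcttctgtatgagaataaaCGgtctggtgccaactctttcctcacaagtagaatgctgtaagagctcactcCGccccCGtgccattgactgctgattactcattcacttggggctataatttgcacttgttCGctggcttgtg
Col6a1: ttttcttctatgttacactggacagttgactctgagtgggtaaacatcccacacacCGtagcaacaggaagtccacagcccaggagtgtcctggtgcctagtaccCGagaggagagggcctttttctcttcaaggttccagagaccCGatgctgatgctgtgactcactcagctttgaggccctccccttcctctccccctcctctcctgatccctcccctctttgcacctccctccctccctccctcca
Dnajc8: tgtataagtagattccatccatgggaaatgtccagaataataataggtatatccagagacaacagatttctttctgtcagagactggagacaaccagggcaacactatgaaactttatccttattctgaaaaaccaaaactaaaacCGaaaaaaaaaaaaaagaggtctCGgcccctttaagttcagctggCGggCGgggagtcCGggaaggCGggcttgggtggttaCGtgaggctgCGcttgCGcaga
Ufd1: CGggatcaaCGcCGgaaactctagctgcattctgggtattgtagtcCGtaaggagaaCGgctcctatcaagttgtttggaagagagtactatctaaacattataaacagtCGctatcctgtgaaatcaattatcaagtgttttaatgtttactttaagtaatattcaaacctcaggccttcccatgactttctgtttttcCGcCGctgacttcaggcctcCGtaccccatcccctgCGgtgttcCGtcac
Akr1c18 had 5 CG and Col6a1 3, while Dnajc8 had 9 and Ufd1 11, and the median over 32851 mouse promoters of that length was 6. Over the 12373 promoters of the 9735 genes found there that reached an RPKM of 0.5 in control the median was 16, so all 4 genes lay below it. At least 1 CG was present in 92.1% of the 32851 promoters and in 98.8% of the 12373. Of the 20 widest genes 12 were found among the promoters, too few for a comparison of the whole set, so the counts describe these 4 genes only.

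Genes for secreted proteins were examined as a group. Of 163 genes for secreted proteins on 6 lists, 156 were in the tables, 100 were expressed and 22 were near 0. Of the 134 that reached an RPKM of 0.5, 37 (27.6%) had a range of at least 2, beside 2.72% of all genes, which makes them 37 of the 334. The median range of the 134 was 1.17 beside 0.43 over all genes. Among the 37 genes, replicate 2 was the highest library for 29 and replicate 1 the lowest for 31. The lists were chosen with earlier results of these data known, so this excess is a description of the lists.

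Control cells expressed a strong set of vessel matrix genes. Lgals1 (galectin-1) had 624, 930.4 and 711 RPKM, Sparc, a matricellular protein, 909, 518 and 765, and Nid1, which links basement membrane networks, 433, 762 and 666. Col4a1 and Col4a2, the main collagen chains of basement membrane, were even, with 596, 506 and 625 and with 435, 397 and 456. Laminin chains were led by Lamc1 at 123, 125 and 119. Spp1, which encodes osteopontin, was 59.4, 1369.7 and 127, so its mean of 519 ± 738 (SD, n = 3) rested on replicate 2, from 2134, 61284 and 4754 reads. Replicate 2 held more Spp1 than replicate 1 by 23.0 times (exact 95% counting interval 22.1 to 24.1).

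Of the angiogenic ligands, Angpt2, the angiopoietin that destabilises vessels, was by far the highest at 539, 212 and 392 RPKM. Pgf, the placental growth factor, had 81.3, 51.8 and 58.9, and Adm (adrenomedullin) 71.2, 56.1 and 73.6. Vegfa was lower, at 21.6, 37.4 and 20.9, as was Vegfb at 39.9, 41.5 and 37.2. The lymphatic ligands Vegfc and Vegfd were least in replicate 1, with 2.05, 11.0 and 7.83, and with 0.262, 9.98 and 3.86. Apln, a peptide of sprouting vessels, and Edn1, the vasoconstrictor endothelin, followed the endothelial markers in being least in replicate 2, with 58.1, 12.5 and 56.6, and with 57.2, 12.2 and 30.4. Angpt1, the partner of Angpt2 made by mural cells, was under 1 in all 3.

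The growth factors were led by Cyr61, a matricellular YAP target, at 83.5, 337 and 280 RPKM, Tgfb1 at 174, 115 and 182, and Bmp4 at 111, 100.2 and 116. Differences were widest in the EGF receptor ligands Ereg, given above, and Areg at 0, 13.4 and 10.3, and in Hgf, the ligand of MET, at 0.293, 20.4 and 2.46. Against the floor of 3 reads in replicate 1, Areg was at least 103-fold higher in replicate 2. Bmp2 was near 0, as were Fgf10 and Igf2.

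Chemokines that draw monocytes and neutrophils were prominent. Ccl2 had 575, 1128 and 795 RPKM, Cxcl1 20.8, 604 and 219.5, and Ccl7 19.6, 479 and 55.2. Mif, a cytokine of many cell types, was even at 579, 620.4 and 509. Of cytokines of the interleukin-6 family, Il6 had 1.45, 36.0 and 10.4, Lif 0.365, 14.4 and 3.27 and Il11 0.920, 1.69 and 0.656. Cxcl5 stood at 0.287, 20.2 and 15.8. Of 21 genes of this list that reached an RPKM of 0.5, 17 were highest in replicate 2 and 13 lowest in replicate 1.

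The proteolytic system was represented by both plasminogen activators, Plat at 835, 572 and 997 RPKM and Plau at 454, 320.4 and 336, and by the protease inhibitor Serpine2 at 28.5, 331 and 148. Timp3 had 256, 225 and 168 and Timp2 128, 231 and 164. Of the metalloproteinases Mmp2 had 39.1, 72.8 and 38.0, while the stromelysin Mmp3 had 10.3, 26.5 and 65.6 and Mmp9 was near 0. Among peptide signals, Stc1 (stanniocalcin) had 588, 299 and 466, the insulin-like growth factor carrier Igfbp5 261, 274 and 236, and Cck, the gut and brain peptide cholecystokinin, 59.6, 611 and 271. The BMP antagonist Grem1 had 28.6, 411 and 143, and lipocalin Lcn2, which binds bacterial iron carriers, 32.3, 341 and 297. Npy, which encodes neuropeptide Y, was present at 16.3, 11.8 and 26.4.

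**Figure D4:**
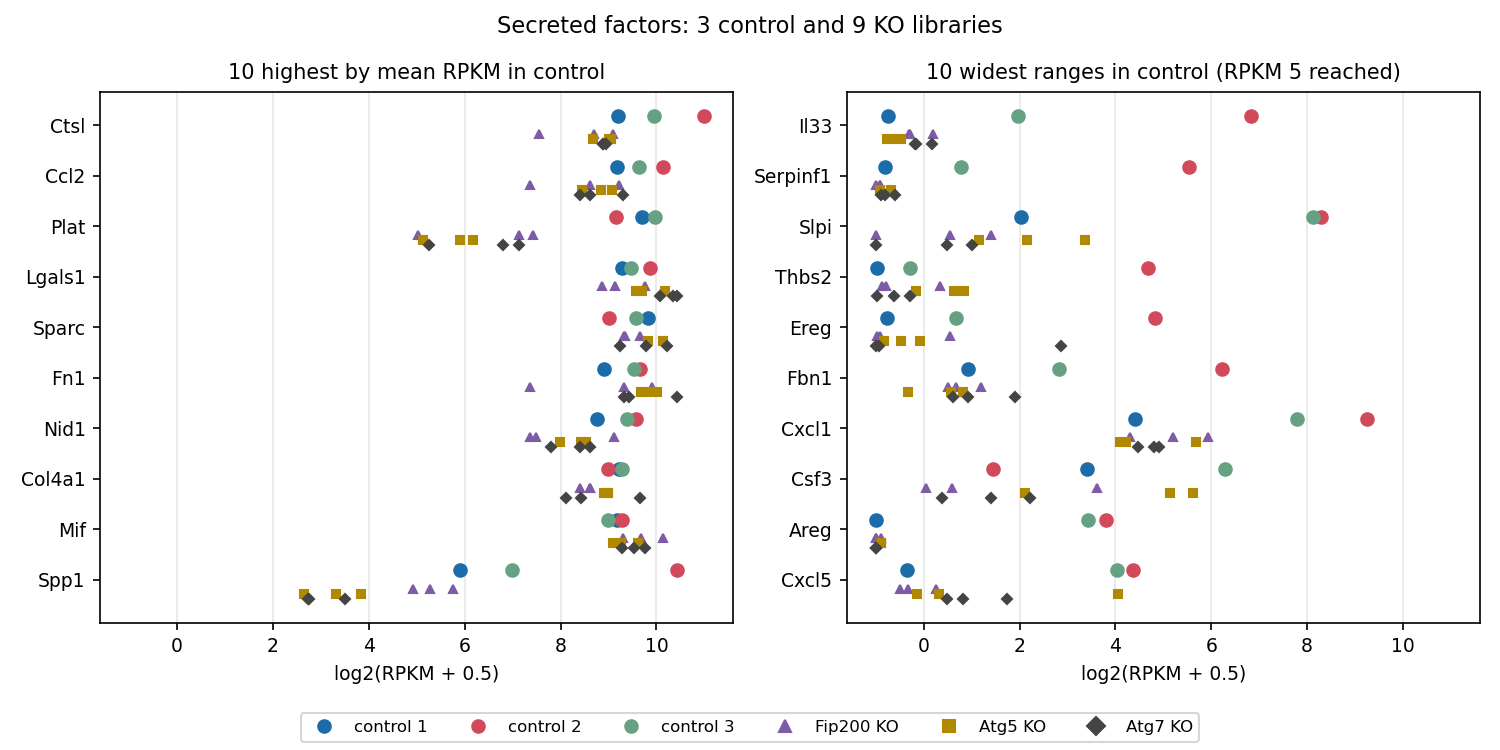
log2 of RPKM plus 0.5 for the 10 secreted factors highest in control (left) and the 10 with the widest range in control among those reaching an RPKM of 5 (right), with the 3 control libraries as circles and the 9 KO libraries below them. All KO libraries lie under every control library for Ctsl, Plat and Spp1, and for Il33 control replicate 1, at 0.101, lies among the KO libraries.

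None of the 11 genes of the TSC and mTORC1 core had a range of 2, and their median range was 0.22. Tsc1 itself, whose deletion defines the line, had 5.55, 7.01 and 5.23 RPKM. The files do not tell reads of the floxed exons from other reads, so its level checks nothing about the deletion. Tsc2 had 12.1, 12.7 and 11.8, and Eif4ebp1, a target of mTORC1, 362, 417 and 295. The cell cycle inhibitor Cdkn2a was high at 293, 402 and 317, and Trp53 was expressed at 5.20, 5.75 and 4.80. Of 16 genes of mitosis and DNA replication all were expressed and 15 were lowest in replicate 1, Mki67 with 16.4, 28.8 and 27.6 and Top2a with 28.3, 56.5 and 46.6, where replicate 1 was lowest for 36.5% of all genes.

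Immediate early genes, which respond within minutes to serum or handling, were also lowest in replicate 1 in 13 of 15 cases. Fos had 15.2, 117 and 79.3 RPKM, Egr1 8.53, 62.8 and 52.2, and Junb 48.7, 164 and 189. Stress genes were highest in replicate 2 in 11 of 15, most of all Ddit3 (CHOP), an effector of the unfolded protein response, at 42.7, 216 and 36.0. Interferon-stimulated genes were lowest in replicate 3 in 11 of 17, with Ifit3 at 30.0, 17.98 and 6.10 and Irf7 at 54.0, 48.4 and 20.9. Over all genes replicate 3 was lowest for 27.9%. These counts describe the 3 libraries and carry no test.

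Against the KO cells, limma called 193 genes lower (1.64%) and 41 higher (0.347%) of 11803 in Fip200 KO libraries. The counts were 821 lower (6.94%) and 510 higher (4.31%) of 11833 for Atg5 KO, with 803 lower (6.81%) and 388 higher (3.29%) of 11784 for Atg7 KO. A call needed an adjusted p of at most 0.1 (Benjamini-Hochberg over all tested genes) and a change of at least 2 times. The 3 comparisons share the control libraries, so they are not independent. Leaving out control replicate 2 or replicate 3 left 0 calls in Fip200 KO by limma, with 1103 and 913 genes at an unadjusted p under 0.05, and without control replicate 1 there were 89 calls. In Atg7 KO cells 730 and 576 were left without control replicates 2 and 3. A fit of all 12 libraries gave 608, 1051 and 1110 calls in Fip200, Atg5 and Atg7 KO, and the same fit with a term for the name prefix 47, 663 and 38. With the prefix term, Fip200 KO libraries were in effect set against control replicate 1 alone, the only control library of their prefix. Atg7 KO libraries share a prefix only with Atg5 KO replicate 3, so they were linked to control through that library. Losses of calls in Fip200 KO and Atg7 KO under this term therefore rest on 1 library. With the replicate number as a block Fip200 KO had 93 calls.

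Of the secreted genes, 8 of 123 tested were called lower and 2 higher in Fip200 KO libraries. For Atg5 KO these counts were 38 and 13 of 121, and for Atg7 KO 31 and 12 of 124. Of the 23 pan-endothelial genes tested, 1 was lower and 0 higher, 0 lower and 6 higher, and 1 lower and 1 higher in the same order. Proteases and their inhibitors were called lower in 2, 9 and 11 of 22, and higher in 0 of 22 each time. All 9 KO libraries lay below all 3 control libraries in 963 of the 12296 genes (7.83%) and above in 687 (5.59%). The same held for 6 of 24 proteases and inhibitors below and 0 above, and for 1 of 24 pan-endothelial genes each way, Flt1 below and Esam above.

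The given markers did not separate control from KO cells in one direction. Pecam1 was 539, 354 and 325 RPKM in Fip200 KO, 287, 460 and 312 in Atg7 KO and 397, 418 and 355 in Atg5 KO libraries. These overlapped with control each time, and limma gave adjusted p = 0.735, 0.968 and 0.461 in that order. Cdh5 was 571, 558 and 443 in Atg5 KO cells, above all control libraries, and limma called it higher by a log2 fold change of 1.28 with an SE of 0.36 (adjusted p = 0.0376). Libraries that did not overlap, with KO higher, were found for 28.4% of genes in Atg5 KO and 19.2% in Atg7 KO. In Atg7 KO cells Cdh5 also lay above control, at 370.2, 805 and 361, with 1.15, an SE of 0.45 and an adjusted p of 0.123 by limma. Kdr was called higher by limma in Atg5 KO cells by 1.35, with an SE of 0.51 and an adjusted p of 0.0878, although its 104, 100.2 and 56.3 overlapped with control replicate 1. Tek passed the test in none of the comparisons, with adjusted p = 0.866 in Fip200 KO, 0.741 in Atg7 KO and 0.183 in Atg5 KO by limma. Without control replicate 2 the change of Cdh5 in Atg5 KO cells was 0.85, under the limit of 1 at a limma adjusted p of 0.02, and that of Kdr was 0.81 at an adjusted p of 0.163 by limma. Cdh5 was also not called without Atg5 KO replicate 1 or with the prefix term, nor Kdr without control replicate 3 or Atg5 KO replicate 1 or 2, without a filter or with all 12 libraries in 1 fit.

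Among lymphatic genes, limma called Lyve1 higher in Atg5 KO cells by a log2 fold change of 1.25 with an SE of 0.38 (adjusted p = 0.048) and in Atg7 KO cells by 1.11 with an SE of 0.39 (adjusted p = 0.0947). Without control replicate 2 or replicate 3 neither change of Lyve1 was called, nor in Atg5 KO without its replicate 2 or 3 and in Atg7 KO without any 1 of its libraries, and with the replicate number as a block the Atg7 KO call was lost (adjusted p = 0.13 by limma). Both were lost with the prefix term, and that in Atg7 KO also without a filter and with all 12 libraries in 1 fit. Foxc2, even in control, was 0.296, 9.30 and 0.301 RPKM in Fip200 KO cells, where limma gave an adjusted p of 0.182. It was called lower by limma in Atg5 KO (-2.37, SE 0.87, adjusted p = 0.0799) and in Atg7 KO cells (-1.86, SE 0.19, adjusted p = 0.0072), and leaving out any 1 control library ended the call in Atg5 KO cells, as did a pseudocount of 0.1, no filter, all 12 libraries in 1 fit and the prefix term. In Atg7 KO cells the call of Foxc2 was lost with all 12 libraries in 1 fit, and with the prefix term its change turned to 1.54. Flt1, a VEGF receptor whose soluble form traps the ligand, was 23.3, 16.1 and 34.1 in control and at most 15.9 in any KO library. The change of Flt1 was -3.66 (SE 0.78, limma adjusted p = 0.0995) for Fip200 KO, a call that did not hold without any 1 of the control libraries or without Fip200 KO replicate 1 or 2, -2.99 (SE 0.53, limma adjusted p = 0.0196) for Atg7 KO, and -1.54 (SE 0.67, limma adjusted p = 0.122) for Atg5 KO. The Fip200 KO call of Flt1 was also lost with a pseudocount of 0.1, with no filter or one at an RPKM of 1, and with the prefix term, under which the Atg7 KO change of Flt1 was -0.58 and not called.

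In Il15, a growth factor of lymphocytes, and in Plat, Twist2, Cck and Npy, all 9 KO libraries lay below all 3 control libraries. Il15 was 19.1, 24.3 and 26.1 RPKM in control and at most 10.8 in KO libraries. Its log2 fold changes were -2.90, -3.10 and -2.04 in the order Fip200, Atg5, Atg7, with SEs of 0.23, 0.15 and 0.41 (limma adjusted p = 0.00854, 0.00192 and 0.0255). Plat was at most 170.5 in KO libraries, with -3.09, -3.88 and -3.22 and SEs of 0.61, 0.31 and 0.48 (limma adjusted p = 0.0867, 0.00305 and 0.013). Twist2, a mesenchymal transcription factor, had 7.03, 62.7 and 27.4 in control and at most 0.504 in KO libraries. Cck reached at most 14.6 in KO libraries (limma adjusted p = 0.0867, 0.00538 and 0.00691), and Npy at most 0.775. For these 5 genes the exact two-sided permutation test gave p = 0.1 in each comparison, the smallest that 3 against 3 libraries allow. That value follows from the separation by which the genes are grouped here, so it adds no support. No gene was called in Fip200 KO without control replicate 2 or 3, so the calls of Il15, Plat and Cck did not hold there. Twist2 and Npy were called lower in all 3 comparisons, but in Fip200 KO and Atg7 KO only the control libraries reached the minimum level. A lower outcome was then the only possible one, so these calls give no support. The p-values of both genes are therefore not given. In Fip200 KO and Atg7 KO too few libraries reached that level for a test of either gene once a control library was left out. The Fip200 KO calls of Plat and Cck were also lost without control replicate 1 and without Fip200 KO replicate 1 or 2, that of Plat with the replicate number as a block (adjusted p = 0.117 by limma), and that of Twist2 without Fip200 KO replicate 2. The Fip200 KO calls of Plat and Cck were lost without a filter too, and that of Cck with a pseudocount of 0.1. The Atg7 KO call of Il15 was lost without control replicate 3. With the prefix term the calls of Il15, Plat and Cck were lost in Fip200 KO and Atg7 KO.

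In Spp1 and Serpine2 replicate 2 was the highest control library, and in Cldn5 replicate 1. Spp1 was 29.9, 38.0 and 53.2 RPKM in Fip200 KO cells, below all controls, with a log2 fold change of -2.46 (SE 1.04) that did not pass (adjusted p = 0.305 by limma). In Atg5 KO cells Spp1 was 9.47, 13.9 and 5.79 (-4.50, SE 1.07, limma adjusted p = 0.0234) and in Atg7 KO cells 6.27, 6.17 and 10.9 (-4.77, SE 1.04, limma adjusted p = 0.0296). Without control replicate 2 the changes of Spp1 were -1.14, -3.18 and -3.45 in the order Fip200, Atg5, Atg7, and without control replicate 1 they were -3.40, -5.44 and -5.71. With the prefix term, which leaves control replicate 1 as the only control for Fip200 KO, the change of Spp1 there was -0.59. Its Atg7 KO call was lost with that term. Serpine2 was at most 12.7 in KO libraries and called lower in all 3 comparisons (limma adjusted p = 0.0823, 0.0329 and 0.0274 in the order Fip200, Atg5, Atg7), in Fip200 KO not without control replicate 2 or 3 or Fip200 KO replicate 1 or 2, and in Atg7 KO not without control replicate 3. The prefix term ended the Serpine2 calls in Fip200 KO and Atg7 KO, and the first was lost without a filter. Cldn5 was called higher in Atg5 KO cells by 4.12 (SE 1.23, limma adjusted p = 0.0451), where its 46.4, 67.6 and 10.2 overlapped with the 12.1 of control replicate 1, and the call did not hold without control replicate 2 or 3 or Atg5 KO replicate 1 or 2.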

How the data were processed

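Total RNA of 562 cells grown in endothelial medium was sequenced from directional libraries, 3 of control and 3 of each KO. Per the study's methods, the authors trimmed adapters, aligned the reads with TopHat2 and counted reads on known transcripts. The deposited data hold RPKM values per gene in 3 tables, 1 per KO, with the same 3 control columns. The genome build and tool versions are not given in the sources used here. The deposited tables also hold the mean signal of the control group, in reads divided by size factors, and the fold changes, p-values and adjusted p-values of the authors' own edgeR comparisons, and these comparisons were not used.

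Reads and library totals were recovered from the RPKM values and the control mean, to within 0.01 of whole reads for 14684 of 14684 genes with control reads. Intervals for ratios are exact at 95%, cover counting error only and treat reads as independent molecules. A library at 0 was set to a floor of 3 reads. Expressed meant an RPKM of at least 1 in all 3 control libraries. Ranges were taken on log2 of RPKM plus 0.5. KO and control libraries were compared with limma 3.58.1 (R 4.3.3, empirical Bayes with trend) on the same scale, KO minus control, where 3 or more of the 6 libraries reached 0.5 RPKM, so fold changes of low genes are understated. Single genes also had an exact two-sided permutation test. The fits were tested on simulated data. Groups followed the labels. Other work used Python 3.11.15, pandas 2.3.3, scipy 1.17.1 and matplotlib 3.10.9. Same-numbered replicates did not deviate together (correlations -0.22 to 0.08), so no block was used. Named genes were list members that were highest, widest in range or near 0, the 20 highest genes, the 20 widest, 5 genes per library and direction that stood apart, the 10 narrowest, the targeted genes, Tsc1, Spp1 and the markers. Genes, lists and the set of libraries were chosen with earlier results of these data known. Sequences are from RefSeq, GRCm38.p6, matched by gene identifier. One item is not reported here.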

Additional observations from a re-analysis of the deposited data

How the results depend on the processing

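Of 432 results under other settings 392 kept direction and call, and of 309 with 1 library left out 50 lost a call, 3 gained one and 7 changed sign. The 309 do not include cases where a gene could no longer be tested once a control library was left out. Twist2 and Npy in Fip200 KO and Atg7 KO are among such cases. Calls in Fip200 KO fell from 234 to 146 without a filter and 93 with the replicate block, and rose to 608 with all 12 libraries in 1 fit. Adding to that 12-library fit a term for the prefix of the library names (chosen after seeing the data) took the 608 to 47, the 1051 of Atg5 KO to 663 and the 1110 of Atg7 KO to 38. Leaving out 1 library gave 0 to 598, with 0 by limma without control replicate 2 or 3 (1103 and 913 genes at an unadjusted p under 0.05), 89 without control replicate 1, and 143, 41 and 598 without Fip200 KO replicates 1, 2 and 3. Atg5 KO gave 1331 calls, 1322 with the block and 985 to 1502 with 1 library left out. Atg7 KO gave 1191 calls, 1071 with the block and 576 to 1514 with 1 library left out, the lowest being 576 and 730 without control replicates 3 and 2 and 768 without Atg7 KO replicate 1. Numbers shared between groups do not pair the libraries. With the prefix term Fip200 KO was in effect compared with control replicate 1 alone, and Atg7 KO was linked to control only through Atg5 KO replicate 3. The term turned the log2 fold change of Pecam1 to -0.11, Kdr to -0.76, Tek to -0.33 and Cldn5 to -0.10 in Fip200 KO. In Atg7 KO it turned that of Tek to 0.63 and that of Foxc2 to 1.54. With 1 library left out, values that changed sign in Fip200 KO ranged from -0.0097 to 0.38 for Pecam1, -0.30 to 0.73 for Kdr, -0.24 to 0.37 for Tek and -0.54 to 0.038 for Tsc1, and in Atg7 KO from -0.19 to 0.18 for Pecam1 and -0.88 to 0.056 for Tek. None of these was called in the first place except Foxc2. The 334 genes with a control range of at least 2 became 653 with a pseudocount of 0.1, 227 with 1, and 1678 at a range of at least 1, and 88, 128 and 283 without control replicates 1, 2 and 3. The 20 endothelial and 13 mesenchymal counts of replicate 2 were the same under median-of-ratios scaling. Causes of these changes were not tested. Ratios of genes near 0 reads in a library are imprecise, as their counting intervals show.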
